A study of Mus musculus with 8 samples.

Results

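The 10 genes described here encode the proteins that join hepatocytes to each other: the claudins Cldn1, Cldn2 and Cldn3, occludin (Ocln) and the scaffold ZO-1 (Tjp1) of tight junctions, E-cadherin (Cdh1) and N-cadherin (Cdh2) of adherens junctions, and the connexins 32 (Gjb1), 26 (Gjb2) and 43 (Gja1) of gap junctions. They were taken from the deposited count table by gene name. All 10 were found among its 56748 genes, and all 10 were among the 14279 genes with enough counts to be tested. The rule uses their names and no measured value, but the genes were chosen with earlier results of these data known.

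The series holds 8 RNA-seq libraries of mouse primary hepatocytes, 2 in each of 4 groups. Cells came from C57BL/6J mice whose Yap1 and Taz (Wwtr1) genes carried loxP sites on both alleles (Yap fl/fl; Taz fl/fl), so wild-type and knockout groups shared these alleles, and the study's methods describe a Cre-dependent tdTomato reporter in the same line. The age given is 7 to 8 weeks, which the study's methods state for the time of virus injection. Its cell culture methods give 8 weeks for hepatocyte donors. Knockout mice had received AAV8-TBG-Cre and wild-type mice AAV8-TBG-Null, a virus without Cre, by vein. Hepatocytes were isolated after 10 days and cultured for 24 h on collagen-coated hydrogels that were soft (1 kPa) or stiff (20 kPa), to compare healthy with diseased liver mechanics in the presence and absence of Yap and Taz. The TBG promoter drives Cre in hepatocytes, so other liver cells that came through the isolation would not have been targeted. The labels do not say that the 2 libraries of a group came from separate mice, so every p-value measures the spread between these libraries, which may be technical.

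Tight junctions seal the bile canaliculus, the channel between neighbouring hepatocytes that collects bile, from the blood side of the cell. Adherens junctions hold the cells together through cadherins that bind the actin cytoskeleton by way of catenins. Gap junctions are channels of connexins that pass ions and small molecules between cells. Yap and Taz are transcriptional coactivators that bind DNA through TEAD factors and respond to the stiffness of the substrate.

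Library totals ran from 18324083 to 26442310 counts, and a count of 0 would allow up to 3 counts at 95% confidence, which is 0.113 to 0.164 CPM (the count scaled to library size). Such limits cover counting error only. Yap1 had 1720 to 2913 counts in the wild-type libraries and 606 to 747 in the knockout libraries, and Wwtr1 had 748 to 1325 and 277 to 410, so both targeted genes were lower in every knockout library but not absent. Hepatocyte markers summed to 92763 to 96023 CPM in wild type and 64674 to 65379 CPM in knockout libraries, with Alb taking most of the sum. Markers of other liver cells were present at low levels, and their values stand beside the results they move with. The sources disagree on the sex of the mice, and the study's methods give male mice. Xist had 4818 to 8443 counts in every library, and the Y-linked genes Ddx3y, Kdm5d, Uty and Eif2s3y had 0 counts in all 8.

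Stretches of DNA just upstream of the annotated start are shown for the 4 junction genes whose levels moved most or in contrast to a relative: Cldn3, the claudin with the largest rise on the stiff hydrogel in wild type, Cldn2, the claudin that fell, and the connexins Gjb1 and Gjb2, which fell most. Each is the 250 bases before a RefSeq start (assembly GRCm38.p6), read 5′ to 3′ on the strand of the gene, and capitals mark a match to a searched motif. Of the 4 Gjb1 starts only the second is shown, which held the most matches.
Cldn3 (chr5:134985964-134986213, plus strand): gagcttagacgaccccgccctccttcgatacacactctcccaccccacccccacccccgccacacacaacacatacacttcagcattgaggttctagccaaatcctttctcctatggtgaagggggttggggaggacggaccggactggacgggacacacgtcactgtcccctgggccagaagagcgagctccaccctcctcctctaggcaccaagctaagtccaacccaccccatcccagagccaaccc
Cldn2 (chrX:139800558-139800807, plus strand): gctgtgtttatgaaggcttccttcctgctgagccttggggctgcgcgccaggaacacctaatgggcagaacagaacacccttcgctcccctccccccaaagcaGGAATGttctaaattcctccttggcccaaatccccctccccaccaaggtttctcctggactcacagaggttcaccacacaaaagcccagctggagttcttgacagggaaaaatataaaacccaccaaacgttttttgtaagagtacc
Gjb2 (chr14:57104703-57104952, minus strand): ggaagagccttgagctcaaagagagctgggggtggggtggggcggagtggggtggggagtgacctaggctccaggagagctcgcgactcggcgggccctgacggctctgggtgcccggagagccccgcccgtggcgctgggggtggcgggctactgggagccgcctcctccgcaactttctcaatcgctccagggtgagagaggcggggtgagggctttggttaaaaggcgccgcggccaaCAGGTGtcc
Gjb1 (chrX:101376985-101377234, plus strand, start 2 of 4): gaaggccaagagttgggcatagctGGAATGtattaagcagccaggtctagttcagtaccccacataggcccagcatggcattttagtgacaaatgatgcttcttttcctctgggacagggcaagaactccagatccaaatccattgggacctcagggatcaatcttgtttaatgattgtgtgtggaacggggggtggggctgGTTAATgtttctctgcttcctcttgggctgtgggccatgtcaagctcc

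RefSeq windows of 8 of the 10 genes were searched, 12 windows in all, because Gjb1 has 4 annotated starts and Ocln has 2. Cdh1 and Cdh2 had no window in this search, and chromosome 18, which holds Cdh2, was left out of it for the junction genes. The 4 motifs named in the next sentences were searched on both strands, and no match overlapped another. The TEAD motif GGAATG occurred in 12.6% of all 32851 windows of this length, and among the junction genes it occurred upstream of Cldn2 (bases -147 to -142 from the start) and of the second Gjb1 start (-226 to -221). The E-box CAGGTG, bound by SNAIL and ZEB repressors, occurred in 17.2% of all windows, and was found upstream of Gjb2 (-9 to -4), the fourth Gjb1 start and the second Ocln start. The hepatocyte factor HNF1 motif GTTAAT occurred in 6.43% of all windows, and was found upstream of Cldn1 (-241 to -236) and the second Gjb1 start (-48 to -43). The AP-1 motif TGANTCA occurred in 6.75% of all windows, and was found upstream of Gja1 (-19 to -13). The Cldn3 and Tjp1 windows held none of the 4 sequences. These are descriptions of letters in short windows, and counts per gene do not say which start was in use.

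On the stiff hydrogel, wild-type hepatocytes changed their junction genes in opposite directions, and in knockout hepatocytes none of them passed the test. The barrier claudin Cldn3 rose 2.14-fold, whereas the gap junction genes Gjb1 and Gjb2 fell 2.67-fold and 2.64-fold, and Cldn2 and Ocln fell 1.54-fold and 1.61-fold. A gene was called changed at a Benjamini-Hochberg adjusted p under 0.05 over all tested genes and an absolute log2 fold change over 0.5, in edgeR's quasi-likelihood test of all 8 libraries. By this rule 5 of the 10 genes changed in wild type, 1 up and 4 down, where 19.3% of all tested genes did. In the knockout 0 of 10 changed, where 0.021% of all tested genes did.

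**Figure D1:**
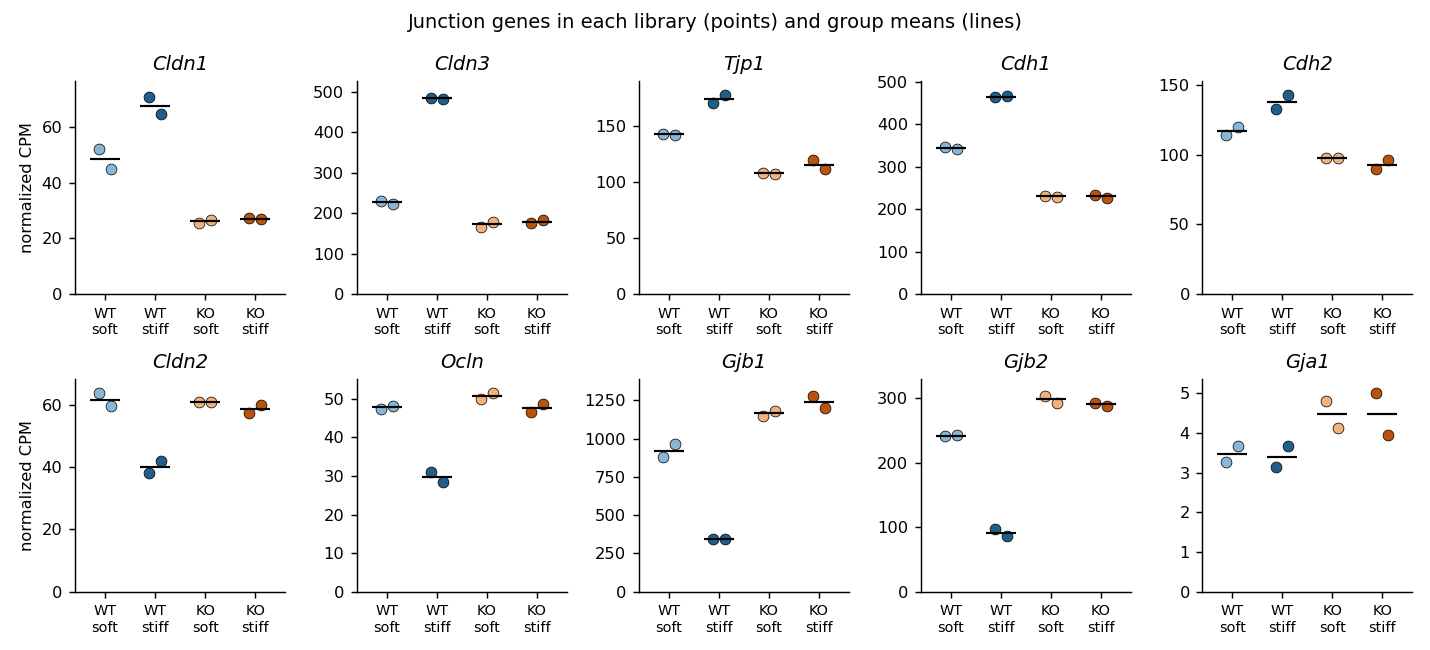
Level of each junction gene in normalized CPM (vertical axis, starting at 0) in the 8 libraries (points, 2 per group) with the group mean (line), for wild type (WT, blue) and Yap/Taz knockout (KO, orange) on soft and stiff hydrogels. In wild type the stiff points of Cldn3 stand above the soft points and those of Gjb1, Gjb2, Cldn2 and Ocln below them, while the knockout points lie close to each other in most panels.

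Levels of different genes were set side by side per kilobase of gene length (normalized CPM per kb), since a longer transcript gives more reads. On the soft hydrogel in wild type the order of mean levels was Gjb1 (540), Cldn3 (180), Gjb2 (100.5), Cdh1 (75.2), Cldn2 (18.6), Tjp1 (18.3), Cdh2 (14.5), Ocln (11.3), Cldn1 (10.0) and Gja1 (0.34). Only Cldn2 and Tjp1 overlapped between their libraries among these neighbours. On the stiff hydrogel Cldn3 (384) stood above Gjb1 (202) in wild type, followed by Cdh1 (102), Gjb2 (38.1), Tjp1 (22.3), Cdh2 (17.1), Cldn1 (14.0), Cldn2 (12.1), Ocln (7.03) and Gja1 (0.33), and no neighbours overlapped. The knockout kept 1 order on both hydrogels: Gjb1 (682 on soft, 725 on stiff), Cldn3 (137 and 142), Gjb2 (124 and 121), Cdh1 (50.3 and 50.4), Cldn2 (18.3 and 17.7), Tjp1 (13.8 and 14.8), Cdh2 (12.1 and 11.5), Ocln (12.0 and 11.3), Cldn1 (5.40 and 5.58) and Gja1 (0.44 on both). Cdh2 and Ocln overlapped there on both hydrogels. By mean level Gjb1 ranked 96 and Gja1 10290 among the 14279 tested genes.

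Claudins build the strands of the tight junction, and the 3 measured here went different ways. Gene positions are given as deposited, and their genome build was not settled. Cldn3 (ENSMUSG00000070473, chr5:135015068-135016326), a sealing claudin of hepatocytes, was counted 5967 and 4013 times in wild type on soft and 10073 and 9496 times on stiff. In normalized CPM these were 230 and 223 on soft and 486 and 482 on stiff, with no overlap. The log2 fold change was 1.10 (SE 0.04, 95% interval 1.00 to 1.19, edgeR adjusted p = 8.7e-13). Knockout libraries held 166 and 178 CPM on soft and 175 and 182 CPM on stiff, which overlapped, and the log2 fold change was 0.05 (-0.04 to 0.15). All 4 knockout libraries lay below both wild-type soft libraries.

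Cldn2 (ENSMUSG00000047230, chrX:138701577-138712135), which forms a paracellular channel for cations and water, moved against Cldn3. Wild-type libraries held 63.9 and 59.6 CPM on soft and 38.2 and 42.0 CPM on stiff. Its log2 level fell by 0.62 (SE 0.07, edgeR adjusted p = 3.7e-07). The 4 knockout libraries lay between 57.3 and 61.1 CPM, near the wild-type soft libraries, and the log2 fold change between hydrogels was -0.05 (-0.19 to 0.08).

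Cldn1 (ENSMUSG00000022512, chr16:26175392-26190591), another sealing claudin, held 52.3 and 44.9 CPM on soft and 70.6 and 64.6 CPM on stiff in wild type. Its log2 fold change of 0.47 (SE 0.07, edgeR adjusted p = 4.1e-05) passed the p threshold and lay just under the fold limit. Without the first wild-type soft library it was 0.60, and without the second wild-type stiff library 0.54, both past the limit. Knockout libraries held 25.7 and 26.6 CPM on soft and 27.2 and 26.8 CPM on stiff, below every wild-type library.

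As shares of the 3 claudins per kilobase, Cldn3 took 85.9% and 86.7% in wild type on soft and 93.7% and 93.6% on stiff, against 84.8% to 86.0% in the 4 knockout libraries. The Cldn2 share went from 9.04% and 8.78% to 2.79% and 3.09% in wild type, and was 10.7% to 11.8% in the knockout. The Cldn1 share was 5.08% and 4.54% on soft and 3.54% and 3.26% on stiff in wild type, and 3.30% to 3.47% in the knockout. With 2 libraries against 2 an exact permutation test cannot give a p under 0.333, so these ratios were not tested.

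Ocln (ENSMUSG00000021638, chr13:100633015-100689226), a membrane protein of the same strands, went with Cldn2. Wild-type libraries held 47.3 and 48.3 CPM on soft and 31.0 and 28.4 CPM on stiff. The level fell by 0.68 on the log2 scale (SE 0.07, edgeR adjusted p = 1.6e-07). Tjp1 (ENSMUSG00000030516, chr7:64945913-65177529), the scaffold that ties claudins and occludin to actin, went the other way with 144 and 142 CPM on soft and 170 and 178 CPM on stiff. Its log2 fold change of 0.29 (SE 0.05, edgeR adjusted p = 0.00013) passed on p and missed the fold limit. In the knockout the changes were -0.09 for Ocln (-0.22 to 0.04) and 0.10 for Tjp1 (-0.01 to 0.20), and neither passed the test.

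Both cadherins were higher on the stiff hydrogel in wild type, by amounts below the fold limit. Cdh1 (ENSMUSG00000000303, chr8:107329983-107396878), the classical epithelial cadherin, held 347 and 341 CPM on soft and 464 and 466 CPM on stiff, a log2 fold change of 0.44 (SE 0.04, edgeR adjusted p = 3.9e-08). Cdh2 (ENSMUSG00000024304, chromosome 18), which hepatocytes express together with Cdh1, held 114 and 120 CPM on soft and 133 and 143 CPM on stiff, a log2 fold change of 0.24 (SE 0.05, edgeR adjusted p = 0.0018). In the knockout Cdh1 stayed between 227 and 233 CPM and Cdh2 between 89.6 and 97.8 CPM over all 4 libraries. Cdh1 remained the more abundant cadherin throughout. The ratio of Cdh1 to Cdh2 per kilobase was 5.34 and 5.01 in wild type on soft, 6.15 and 5.75 on stiff, 4.17 and 4.15 in the knockout soft libraries and 4.59 and 4.17 in the knockout stiff ones.

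Connexins gave the largest changes among the junction genes. Gjb1 (ENSMUSG00000047797, chrX:100419984-100429235), the main gap junction protein of hepatocytes, was counted 22819 and 17348 times in wild type on soft and 7172 and 6785 times on stiff. In normalized CPM these were 879 and 964 against 346 and 345, which did not overlap. The level fell by 1.42 on the log2 scale (SE 0.04, 95% interval -1.51 to -1.32, edgeR adjusted p = 2.2e-14). Knockout libraries held 1150 and 1178 CPM on soft and 1278 and 1199 CPM on stiff, above every wild-type library. The knockout difference of 0.09 (0.00 to 0.18) was the only one of the 10 with an unadjusted p under 0.05 (0.048), and its edgeR adjusted p was 0.66, the smallest of the 10.

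Gjb2 (ENSMUSG00000046352, chr14:57336057-57342159), the second hepatocyte connexin, followed Gjb1 closely. Wild-type libraries held 241 and 242 CPM on soft and 96.4 and 86.9 CPM on stiff, and the level fell by 1.40 on the log2 scale (SE 0.05, edgeR adjusted p = 1.7e-13). Knockout libraries held 303 and 292 CPM on soft and 293 and 287 CPM on stiff, a log2 fold change of -0.04 (-0.14 to 0.06). The ratio of Gjb1 to Gjb2 per kilobase ran from 5.05 to 5.60 in the wild-type libraries and from 5.34 to 6.15 in the knockout libraries. In wild type the 2 genes thus kept nearly the same proportion while both fell on stiff.

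Gja1 (ENSMUSG00000050953, chr10:56253426-56278609), best known in the liver from non-parenchymal cells, was the lowest of the 10 genes in every group, with 65 to 123 counts per library. It held 3.27 and 3.67 CPM on soft and 3.13 and 3.66 CPM on stiff in wild type, which overlapped, and 4.80 and 4.13 CPM on soft and 5.01 and 3.95 CPM on stiff in the knockout. The intervals of its log2 fold change ran from -0.47 to 0.42 in wild type and from -0.41 to 0.42 in the knockout, so a change of less than this size was not detectable at this depth. It made up 0.05% to 0.15% of the 3 connexins per kilobase.

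The difference of the stiffness response between genotypes (the interaction, knockout change minus wild-type change) was tested in the same fit. It was called for 5 of 10 genes, where 16.8% of all tested genes were called: Gjb1 (1.505, SE 0.06), Gjb2 (1.36, SE 0.07), Ocln (0.59, SE 0.09) and Cldn2 (0.57, SE 0.09) with a positive sign and Cldn3 (-1.04, SE 0.06) with a negative sign. Another 3 passed on edgeR's adjusted p below the fold limit: Cdh1 (-0.43, adjusted p = 7.4e-06), Cldn1 (-0.42, adjusted p = 0.0073) and Cdh2 (-0.31, adjusted p = 0.0058). Tjp1 (-0.19, edgeR adjusted p = 0.051) and Gja1 (0.03, interval -0.58 to 0.64) did not pass. The Cldn2 interaction was 0.49, under the limit, without the first wild-type stiff library, and that of Cldn1 was -0.55, past the limit, without the first wild-type soft library. Apart from Gja1, the intervals of the knockout change lay between -0.22 and 0.22.

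**Figure D2:**
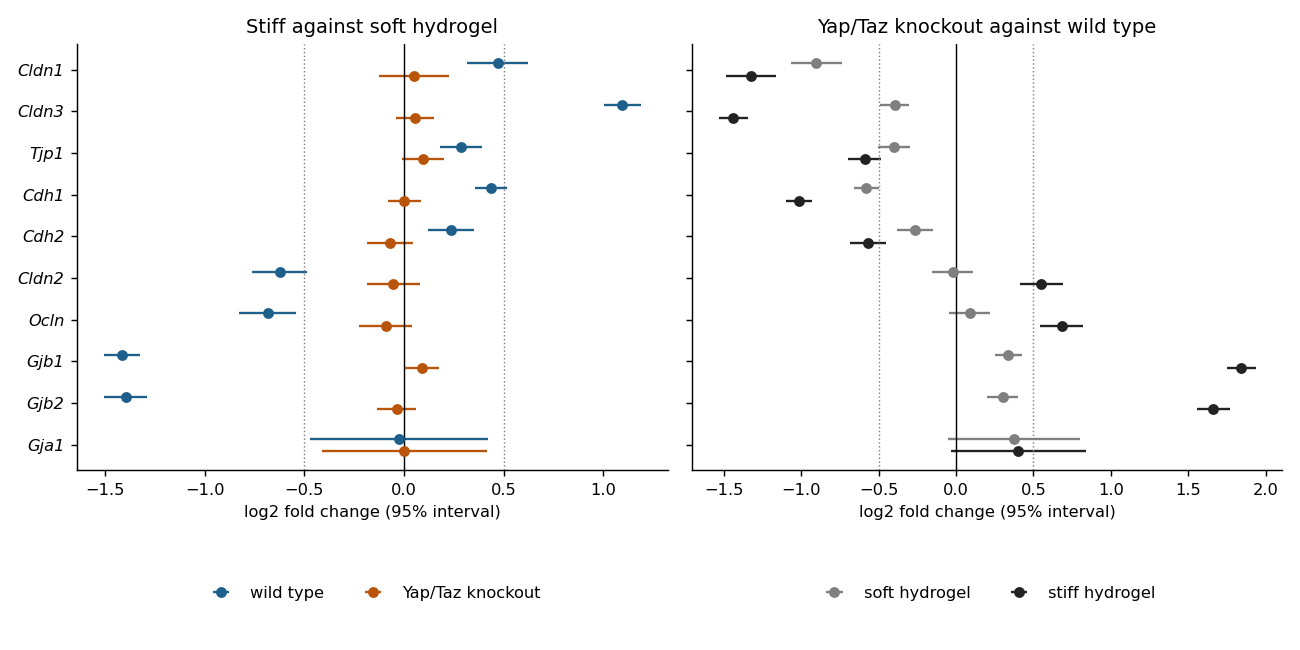
Log2 fold change with its 95% interval for the 10 junction genes, stiff against soft on the left (wild type in blue, knockout in orange) and knockout against wild type on the right (soft hydrogel in grey, stiff hydrogel in black), with dotted lines at the fold limit of 0.5. Knockout values on the left lie between -0.09 and 0.10, and on the right the black points of 9 genes lie past the dotted lines.

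Knockout and wild type differed in these genes already on the soft hydrogel. There 2 of 10 genes were called, where 6.67% of all tested genes were: Cldn1, 1.87-fold lower in the knockout (log2 fold change -0.90, SE 0.08, edgeR adjusted p = 1.0e-07), and Cdh1, 1.49-fold lower (-0.58, SE 0.04, edgeR adjusted p = 3.5e-09). Another 5 passed on p below the fold limit, with Cldn3 (-0.40), Tjp1 (-0.40) and Cdh2 (-0.26) lower and Gjb1 (0.34) and Gjb2 (0.30) higher in the knockout. Cldn2 (-0.02, interval -0.15 to 0.11), Ocln (0.09, -0.05 to 0.22) and Gja1 (0.38, -0.05 to 0.80) did not pass.

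On the stiff hydrogel 9 of 10 genes were called between genotypes, where 28.7% of all tested genes were. Gjb1 was 3.59-fold higher in the knockout (log2 fold change 1.84, SE 0.04, edgeR adjusted p = 2.2e-16), Gjb2 3.16-fold, Ocln 1.60-fold and Cldn2 1.46-fold. Cldn3 was 2.71-fold lower (-1.44, SE 0.04, edgeR adjusted p = 8.8e-15), Cldn1 2.50-fold, Cdh1 2.02-fold, Tjp1 1.51-fold and Cdh2 1.48-fold. Gja1 (0.40, interval -0.03 to 0.84) was the gene not called. The Cldn2 difference was 0.47, under the fold limit, without the first wild-type stiff library. This comparison shares the wild-type stiff libraries with the wild-type comparison of hydrogels, so the values of both stand side by side and are not separate evidence.

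Over the 8 libraries the genes fell into 2 sets: Cldn1, Cldn3, Cdh1, Cdh2 and Tjp1 were highest in the wild-type stiff libraries, and Cldn2, Ocln, Gjb1 and Gjb2 were lowest there. The absolute log2 fold change between hydrogels had a median of 0.55 for the 10 genes in wild type and 0.05 in the knockout, beside 0.27 and 0.09 over all tested genes.

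Markers of other cell types moved in part with these genes. Over all 14279 tested genes, 1322 were called lower and 1432 higher on stiff in wild type. Endothelial markers (10 genes, none at 0) summed to 89.1 to 90.4 CPM in wild-type soft, 60.2 to 63.1 in wild-type stiff, 114 to 115 in knockout soft and 118 to 127 CPM in knockout stiff libraries, and 6 of 10 were called lower on stiff in wild type. Kupffer cell and macrophage markers (10 genes, none at 0) summed to 93.1 to 98.4, 64.5 to 71.3, 136 to 137 and 139 CPM in the same order, and 6 of 10 were called lower. Stellate and fibroblast markers (10 genes, 1 of them at 0 in wild-type stiff libraries) summed to 37.8 to 38.2, 26.5 to 27.5, 53.7 to 54.9 and 55.0 to 58.1 CPM, and 3 of the 9 tested were called lower and 1 higher. These sums had the same order of groups as Gjb1, and their part in the values of Gja1 or of the other junction genes was not tested.

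Cholangiocyte markers, of cells that also express Cdh1 and claudins, summed to 576 to 606, 627 to 631, 369 to 370 and 343 to 354 CPM, with Cftr at 0 in all 8 libraries and Spp1 taking most of the sum. Of the 8 tested, 2 were called higher on stiff in wild type and 2 lower, where 19.3% of all tested genes were called. Krt19 went from 2.13 to 20.6 CPM while Epcam was 0.70 and 0.53 CPM. Hepatocyte markers fell in part: 4 of 10 were called lower on stiff in wild type, where 1322 of all 14279 tested genes were. Among the 4 was Hnf4a, the hepatocyte nuclear factor, at -0.98 on the log2 scale. In the knockout 0 of 10 were called, where 0.021% of all tested genes were. Mesothelial markers summed to at most 0.35 CPM, with Wt1 and Upk1b at 0. In bulk RNA, fewer cells of a type and less RNA per cell cannot be told apart.

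Junction genes beyond these 10 were followed in 4 lists. Of 24 other tight junction genes tested, 4 rose and 3 fell past the thresholds in wild type on the stiff hydrogel, where 19.3% of all tested genes were called. Cingulin (Cgn), a cytoplasmic plaque protein, went from 125 to 335 CPM (log2 fold change 1.42) and Cldn4, a sealing claudin, from 145 to 291 CPM (1.00). Mpdz, a scaffold with many PDZ domains, went from 5.65 to 9.11 CPM (0.68). Tricellulin (Marveld2, -0.70), Cldn14 (-0.68) and the adhesion receptor Cxadr (-0.68) fell. The Cldn14 call was lost without the second wild-type soft library (-0.38, edgeR adjusted p = 0.20) or the second wild-type stiff library (-0.58, edgeR adjusted p = 0.105). About 17.2% of the 64-base windows in the Cgn transcript also occur in BC021767, so its counts are less certain, and Cxadr overlaps Btg3 on the opposite strand, which matters if strand was not used in counting.

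Of 12 other adherens junction genes 4 were called higher and 1 lower in wild type, where 19.3% of all tested genes were called. Ajuba, a LIM protein that binds catenins and Hippo kinases, went from 81.4 to 195 CPM (log2 fold change 1.26), and Nectin2, an immunoglobulin-like adhesion receptor, from 109 to 229 CPM (1.07). Plekha7, a zonula adherens protein, was 0.79 higher, and vinculin (Vcl), which couples cadherin complexes to actin, fell by 0.58 and overlaps Ap3m1 on the opposite strand. Of 9 desmosome genes, beside the same 19.3%, 1 was called higher, the plakophilin Pkp2 (0.55), and 3 lower: the plakophilin Pkp3 (-0.98), the cadherin Dsg2 (-0.54) and periplakin (Ppl, -0.53). Ppl was -0.44 without the second wild-type soft library and -0.485 without the first wild-type stiff library, both under the fold limit. The Pkp3 call was lost without any 1 of the 4 wild-type libraries (edgeR adjusted p = 0.064 to 0.21), without the first knockout soft library (0.051) and with DESeq2 (0.109).

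Of 7 other connexin and pannexin genes 4 were called higher and 1 lower in wild type, at low levels throughout, where 19.3% of all tested genes were called. Gjb5 went from 13 to 38 counts summed over the 2 libraries of each hydrogel (log2 fold change 1.68). Gja4 (connexin 37, an endothelial connexin) was lower, with 5 and 10 counts on soft and 0 and 1 on stiff, a ratio of 0.072 with a 95% counting interval of 0.0017 to 0.47. The Gjb5 call was lost without any 1 of the 4 wild-type libraries (edgeR adjusted p = 0.057 to 0.23), without the second knockout soft library (0.052) and with DESeq2 (0.128). The Gja4 call was lost without the second wild-type soft library or either wild-type stiff library (edgeR adjusted p = 0.066 to 0.22) and with DESeq2 (0.0706). In the knockout 0 of the 52 genes of the 4 lists were called between hydrogels, where 0.021% of all tested genes were.

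The median log2 fold change in wild type was -0.01 for the tight junction list, 0.23 for the adherens junction list, -0.42 for the desmosome list and 0.66 for the connexin list, beside -0.01 over all tested genes. In the knockout these medians were 0.02, 0.04, 0.02 and -0.04, beside 0.01. Between genotypes on the stiff hydrogel 3 of the 24 tight junction genes were called higher in the knockout and 6 lower, for adherens junctions 1 and 5 of 12, for desmosomes 2 and 1 of 9 and for the connexins 1 and 4 of 7, where 28.7% of all tested genes were called. On the soft hydrogel the counts were 0 and 1, 0 and 1, 0 and 1, and 1 and 1, where 6.67% of all tested genes were called.

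**Figure D3:**
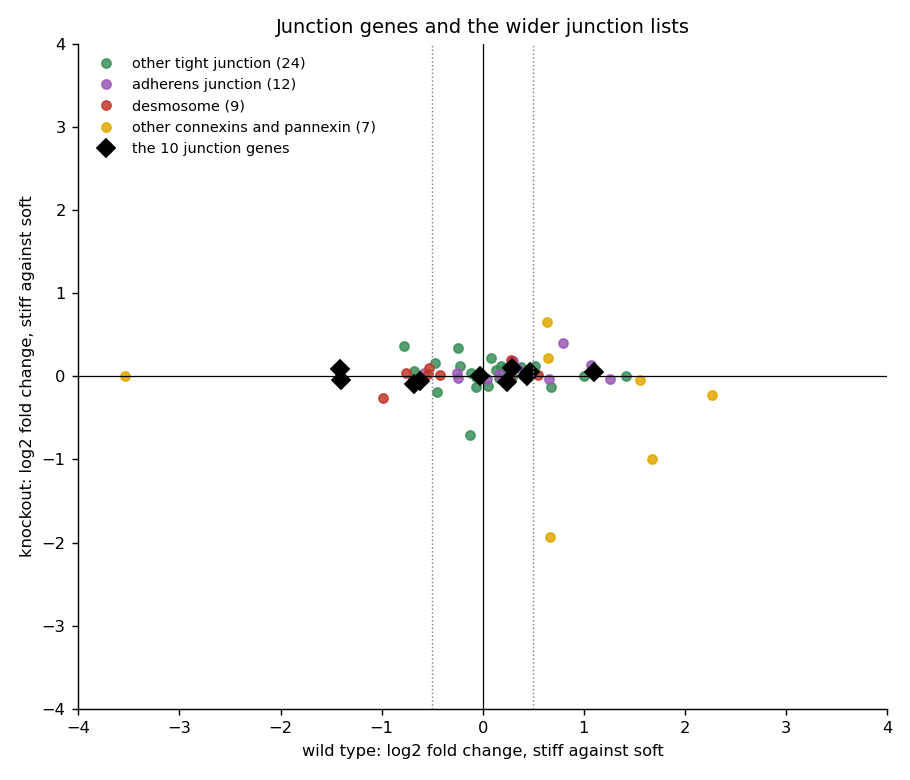
Log2 fold change between stiff and soft hydrogels in wild type (horizontal axis) against the knockout (vertical axis) for the 10 junction genes (black diamonds) and the 52 tested genes of 4 wider junction lists (coloured points), with dotted lines at the fold limit of 0.5 in wild type. Points spread along the horizontal axis and stay near 0 on the vertical axis, and the 3 points furthest from it belong to genes with few counts.

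For each junction gene, genes of most similar pattern, at most 2, were sought among those with a mean of at least 100 counts, by Pearson's r of log2 CPM over the 8 libraries. These r values are a description of points that form 4 groups of 2, and each was the highest among up to 10037 candidates. Gjb1 was most like Smoc1, Gjb2 like Sema3c and Pilra, Cldn3 like Tmem123 and the matrix protein fibronectin (Fn1), and Cdh1 like Rnd1 and Cyp2f2. Cldn1 was most like Specc1 and Xaf1, Cldn2 like Bbox1 and Spag9, Cdh2 like Ikbip and Pde7a, Tjp1 like Ttc39b and Trim25, and Ocln like Atf4 and Tax1bp1. All of these had r between 0.991 and 0.999, and for Gja1 the closest were Hmgb1 (0.97) and Fnta (0.96).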

How the data were processed

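RNA-seq of 8 libraries was analysed from the raw counts per gene that the authors deposited, 1 column per library, without normalization, next to gene lengths and positions. Per the study's methods and processing notes, the authors used HISAT2 2.0.5 to align read pairs and featureCounts to count them. Whether strand was used in counting is not given in the sources used here. The notes name mm9, yet the positions of 0 of the 10 genes equal those in the GRCm38 annotation, so the build of the deposited positions was not settled and they are printed as deposited. Promoter windows follow GRCm38.p6.

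In R 4.3.3, genes were filtered by edgeR 4.0.16 (filterByExpr by group), scaled by TMM (factors 0.978 to 1.02) and fitted with glmQLFit for all 8 libraries, and contrasts were tested with glmQLFTest. The SE is the log2 fold change divided by the root of F. The fit had 4 residual degrees of freedom. Intervals and p-values used edgeR's larger total degrees of freedom, which borrow information on the spread from all tested genes. Normalized CPM is the count over the TMM-scaled library size, divided by the deposited length where given per kilobase. The fit was tested on simulated data. DESeq2 1.42.0, other scalings and filters, fold limits, a replicate block and each library left out were alternatives. Figures were drawn with matplotlib. From each wider list, up to 3 called genes with the largest rise and fall in wild type are named, and a few genes under these rules are not reported here. The genes and lists were chosen with earlier results of these data known. No shared 64-base window was found between the 10 genes and other transcripts.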

Additional observations from a re-analysis of the deposited data

Results flagged for a closer look

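For 8 of the 10 junction genes the response to the stiff hydrogel differed between wild type and knockout by the interaction test of edgeR. The rule here was an adjusted p under 0.05 with no fold limit, by which 29.4% of all tested genes passed. With the fold limit 5 of the 10 were called, where 16.8% of all tested genes were. The interaction log2 fold changes were -1.04 for Cldn3, -0.43 for Cdh1, -0.42 for Cldn1 and -0.31 for Cdh2, which were higher on stiff in wild type, and 1.505 for Gjb1, 1.36 for Gjb2, 0.59 for Ocln and 0.57 for Cldn2, which were lower there.

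The same test passed for 11 named genes of the wider junction lists, again with no fold limit, where 29.4% of all tested genes passed. These genes were named for their change in wild type, which is part of the interaction, so their passing is not separate evidence. Among tight junction genes the values were -1.42 for Cgn, -1.001 for Cldn4, -0.80 for Mpdz, 0.66 for Marveld2 and 0.61 for Cxadr. In the adherens junction list they were -1.30 for Ajuba, -0.93 for Nectin2 and 0.62 for Vcl. Desmosome genes gave -0.53 for Pkp2, 0.56 for Dsg2 and 0.63 for Ppl. Mpdz no longer passed without the second wild-type soft library (-0.68), the second wild-type stiff library (-0.78) or the first knockout stiff library (-0.60).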

How the results depend on the processing

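Of 790 recomputed values for the 10 genes over 18 alternatives, 752 kept their direction and their side of the thresholds, 2 lost a call, 3 gained one and 33 changed sign, all of the last kind in values that were not called. With no minimum fold change the genes called were 9 in wild type, 8 for the interaction and 7 between genotypes on soft, and with a limit of 1 they were 3, 3 and 0, and 5 between genotypes on stiff. In the wider lists the numbers called of 52 were 38 in wild type, 24 for the interaction, 19 on soft and 40 on stiff with no minimum, and 8, 5, 2 and 7 with a limit of 1. In the same order of comparisons, 41.0%, 29.4%, 18.4% and 51.1% of all tested genes were called with no minimum, and 8.71%, 7.28%, 2.47% and 14.7% with a limit of 1. Correlations of the replicate deviations between groups were 0.04 in wild type, -0.07 in the knockout, 0.18 on soft and -0.05 on stiff. Across both genotype and hydrogel they were -0.32 and 0.21. With 2 libraries per group these values cannot show whether the replicate numbers pair the samples. The replicate block gave 5, 0, 5, 2 and 9 of the 10 genes called in the 5 comparisons, as without it.

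Cldn1 and Cldn2 were the genes whose calls depended on 1 library, as given beside their values, and both lay near the fold limit of 0.5. The sign changes were in differences close to 0. In the knockout the Cdh1 difference between hydrogels was -0.0027 with DESeq2, -0.0037 with upper-quartile factors, -0.0023 with library size only, -0.0112 with no filter, -0.0042 with at least 10 counts in every library and -0.0072 with the 4 libraries alone, and the Gja1 difference was -0.00051, -0.0028, -0.0010, -0.0108, -0.0035 and -0.0064. With library size only, Cldn2 was 0.033 higher in the knockout on soft. Leaving out 1 library at a time gave ranges of -0.0202 to 0.0115 for Cdh1, -0.00080 to 0.098 for Cldn3 and -0.18 to 0.15 for Gja1 in the knockout, -0.138 to 0.089 for Gja1 in wild type, -0.16 to 0.18 for its interaction, and -0.068 to 0.036 for Cldn2 between genotypes on soft. Among the named genes of the wider lists, Pkp3, Gjb5 and Gja4 lost their wild-type call with DESeq2 (adjusted p 0.109, 0.128 and 0.0706). Low counts limit these genes and Gja1, and 2 libraries per group limit every SE.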
